A study of Mus musculus with 4 samples.

Results

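The genes described here are 52 components of the machinery that carries a cell through G2 and mitosis: kinases and cyclins of mitotic entry, spindle checkpoint proteins, kinetochore and spindle proteins, and factors of cytokinesis and chromosome condensation. They were chosen by name from a list of such genes, with earlier results of these data known. All 52 were found among the 22770 rows of the deposited expression table. RNA was sequenced from cerebral cortex dissected from mouse embryos at embryonic day 16.5. The tested embryos were Pax6 sey/sey (2 libraries), homozygous for Small eye, a point mutation of Pax6 that is carried in every cell of the embryo. The comparison embryos were wild-type littermates (2 libraries). Both genotypes shared a mixed background of C57BL/6J, 129S6 and CD1, and no treatment or further allele is named for either. The sources used here do not say whether a library came from 1 embryo or several, so the p-values measure the spread between these libraries, part of which may be technical.

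In mitosis, Cdk1 bound to cyclin B starts chromosome condensation and spindle assembly, kinetochores link each chromosome to spindle microtubules, and the spindle checkpoint holds back the anaphase-promoting complex until every kinetochore is attached. The central spindle then places the contractile ring that separates the daughter cells. Many of these genes are transcribed in G2 and M phase and fall to low levels in cells that have left the cell cycle, so in embryonic cortex their RNA comes mainly from dividing radial glia and intermediate progenitors, while neurons, which do not divide, make up much of the tissue. Several of them, such as Aspm and Kif11, are microcephaly genes in humans. Pax6 is a transcription factor of cortical radial glia known to control their proliferation and dorsal identity.

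The values were FPKM, fragments scaled to exon length and to the mapped total of each library, and summed to 579698 and 582183 in the mutant libraries and to 593256 and 584570 in the wild-type libraries. FPKM does not keep the number of fragments. From the steps between low values, the depth relative to wild-type library 1 was estimated at 0.866 and 1.19 in the mutants and 0.783 in wild-type library 2. Differences were tested with limma on log2(FPKM + 0.5) over the 15399 genes at 0.5 FPKM or more in at least 2 libraries. A gene was called at a Benjamini-Hochberg adjusted p under 0.05 over all of these genes. Fold changes below are the mutant mean less the wild-type mean on that scale, and the added 0.5 makes those of low genes too small. Pax6 itself stood at 101 and 120 FPKM in the mutants and at 28.8 and 27.0 FPKM in the wild types (log2 fold change 1.96, SE 0.10, limma adjusted p = 0.00466, and 0.079 and 0.082 without wild-type library 1 or 2), and since the mutant allele still makes a transcript this level does not check the genotype. Cortical markers were present in every library, with Tbr1 between 59.3 and 117 FPKM, while 5 of 6 choroid plexus markers (Clic6, Folr1, Kcne2, Kl and Otx2) were at 0.5 FPKM or less throughout.

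These 52 mitotic genes were higher in the Pax6 sey/sey cortex as a block, with changes of similar size for all but Bub3. They were chosen with earlier results of these data known. The median log2 fold change of 121 other mitotic genes was 0.46. All 52 members passed the filter on low values. Of these, 34 rose in the mutants (65.4%), none fell, and 18 did not pass the test, against 2.02% called higher and 1.46% called lower (3.48% in all) among all tested genes. The level was above both wild types in both mutants for 51 of the 52 members, against 25.8% of all tested genes, and those 51 had an unadjusted limma p under 0.05, against 10.2% of all tested genes that had one and were higher. The exception was Bub3. The median log2 fold change was 0.92, beside 0.001 over all tested genes, and the quartiles were 0.80 and 1.06. On the linear scale the median ratio of mutant to wild-type mean was 1.95, and for 47 members it lay between 1.5 and 2.5. The values are relative to the total of each library. In whole tissue, a larger share of dividing cells and more of these RNAs per cell cannot be told apart.

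Summed over the 52 genes, the level was 1344 and 1568 FPKM in the mutants and 734 and 820 FPKM in the wild types, that is 0.232% and 0.269% of all FPKM in the mutants and 0.124% and 0.140% in the wild types. The groups did not overlap in this sum. The calls needed all 4 libraries: without any single one of them, limma called 0 of the 52 members, with a smallest adjusted p of 0.0575 without mutant library 1, 0.103 without mutant library 2, 0.142 without wild-type library 1 and 0.106 without wild-type library 2, while unadjusted p was under 0.05 with a higher level for 51, 49, 48 and 51 members. The median log2 fold change was lowest without mutant library 2, at 0.81, and highest without mutant library 1, at 1.06. Of all tested genes 0.201%, 0.0909%, 0.039% and 0.0584% were called higher in these fits. Likewise 0 members were called by limma without a trend of variance on level (51 at unadjusted p under 0.05, background of calls 0.221%), and 1 member without the filter on low values (background 0.176%). For the fits in this paragraph, the share of all tested genes at unadjusted p under 0.05 is not given, so those counts have no background.

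**Figure D1:**
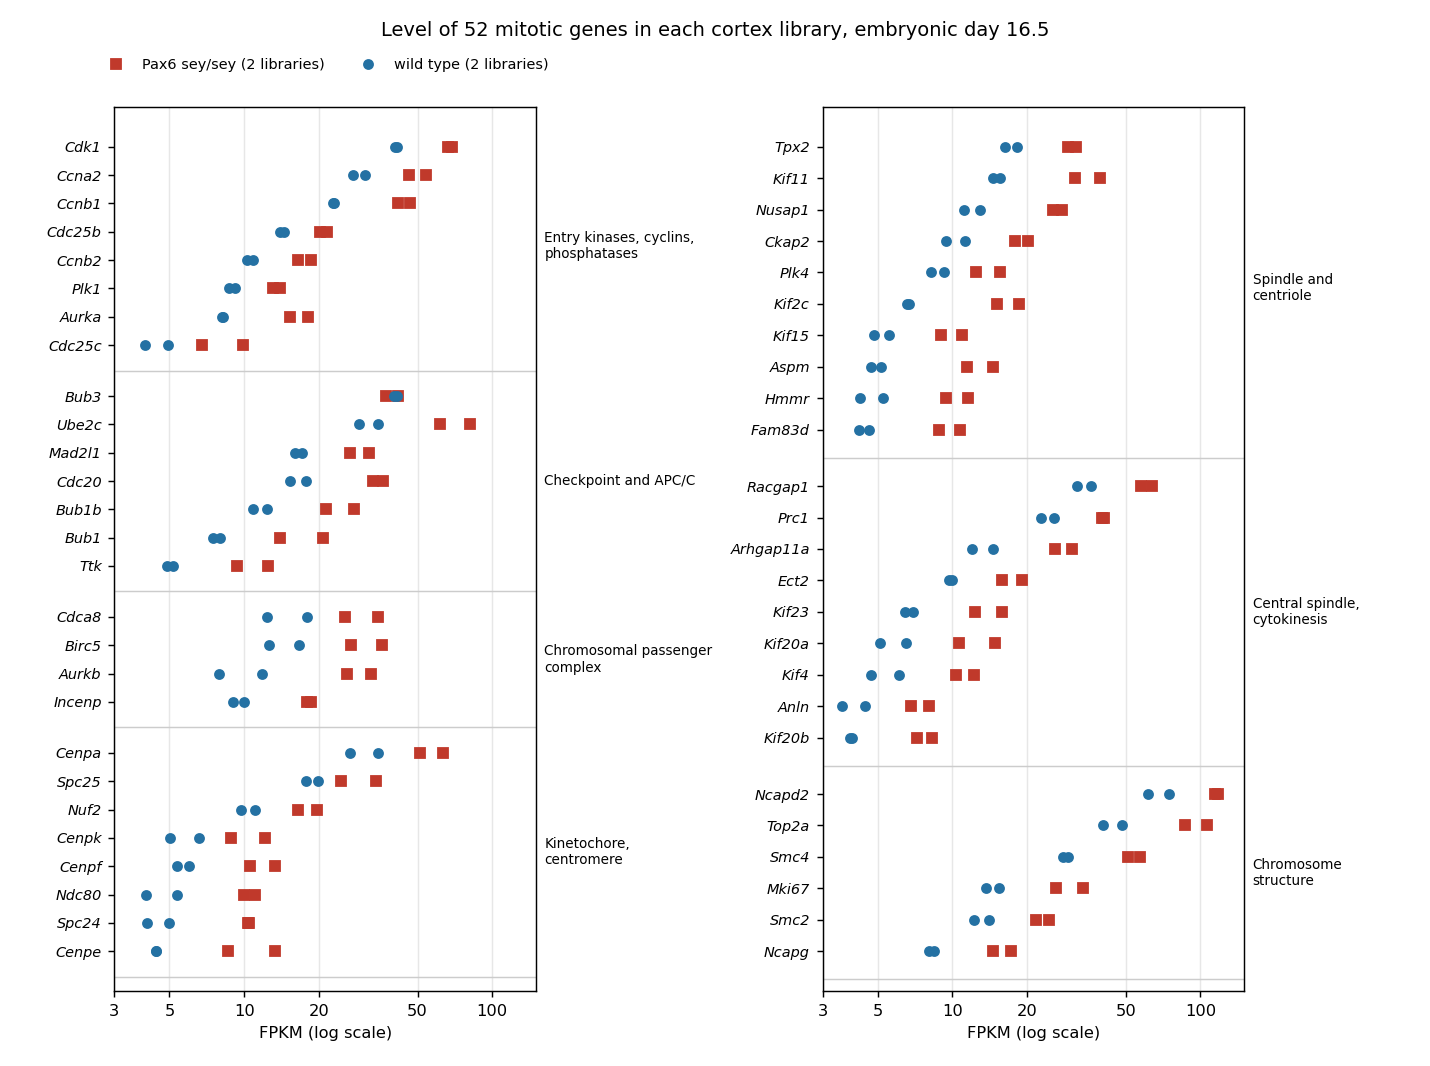
Level of each of the 52 members in FPKM (log axis), by role, with red squares for the 2 Pax6 sey/sey libraries and blue circles for the 2 wild-type libraries. For every member but Bub3 both squares lie to the right of both circles, and the levels span 3.60 to 118 FPKM.

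The order of the genes by level was nearly the same in both genotypes (Spearman's coefficient 0.975 between the group means over 52 genes, a description across genes that are not independent). Ncapd2, a condensin subunit, was highest in every library at 118.1 and 114.5 FPKM in the mutants and 61.7 and 74.4 FPKM in the wild types. Its exons also hold 2 shorter annotated RNAs, Scarna10 and Gm28967, whose share of this level cannot be told apart. The lowest level in any library was 3.60 FPKM, for the contractile ring scaffold Anln in wild-type library 1. Across members, the log2 fold change was weakly and inversely related to the wild-type level (Spearman's coefficient -0.32) and unrelated to exon length (-0.007). The wild-type level is also subtracted in the fold change, so scatter between the wild types can by itself make the first coefficient negative.

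The members also moved together between libraries of the same genotype. Mutant library 2 was above mutant library 1 for 50 of 52 members, by a median of 0.25 on the log2 scale, and wild-type library 2 was above wild-type library 1 for 45 of 52, by a median of 0.16. Over all 15399 tested genes, library 2 was above library 1 for 7696 in the mutants and for 7726 in the wild types, and the medians were 0.0 and 0.00067. The genotype difference (median 0.92) was larger than either of these.

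**Figure D2:**
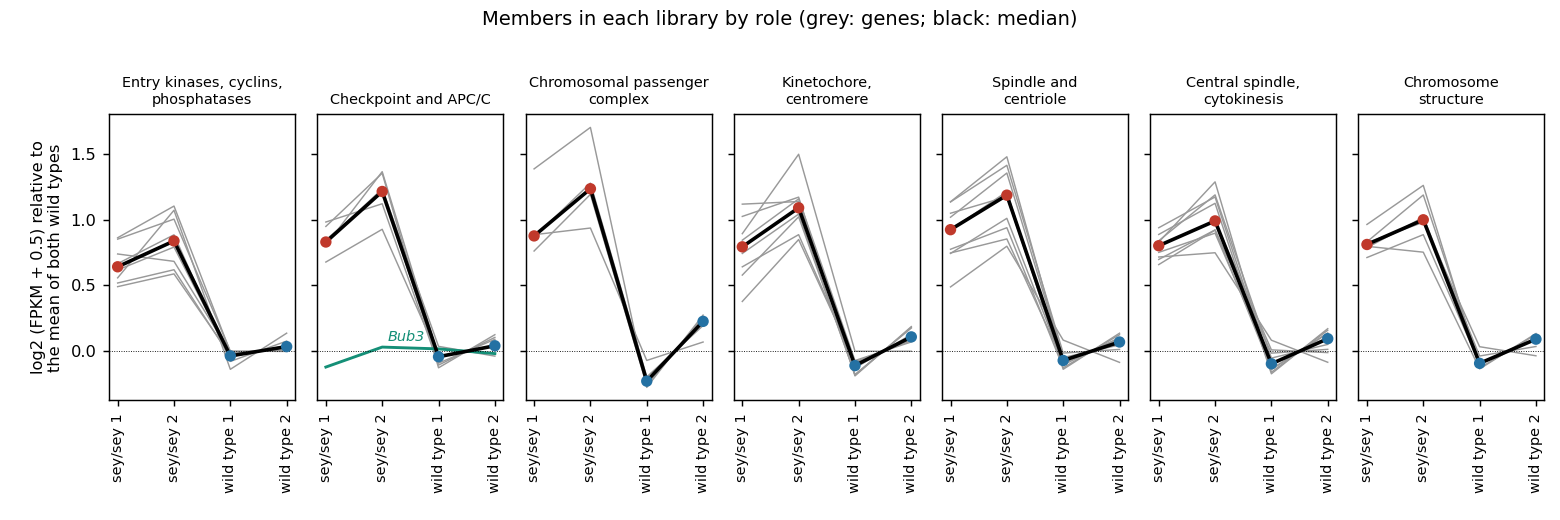
Each member in the 4 libraries as log2(FPKM + 0.5) relative to the mean of both wild types (vertical axis), by role, in grey, with the median of each role in black and its points red for Pax6 sey/sey and blue for wild type. The medians of all 7 roles are higher in both mutants, mutant library 2 is above mutant library 1 in each role, and Bub3 (green) stays near 0.

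A shared promoter architecture is known for many mitotic genes. A CHR (cell cycle genes homology region) near the transcription start, often downstream of CCAAT boxes, is bound by the MuvB complex, with Foxm1 in G2, and CCAAT boxes are bound by NF-Y. RefSeq promoter windows (GRCm38.p6, 250 bases before to 50 after the start) were matched for 44 of the 52 members. The other 8 are Aurkb, Ccna2, Cdc25c, Incenp, Kif20a, Smc4, Spc24 and Tpx2. The windows printed here run from 150 bases before the start to 50 after it, 5′ to 3′ on the strand of the gene. They show members described library by library below, with and without these motifs, whether called (Cdk1, Top2a, Cdc20, Prc1, Cenpf and Nusap1) or not (Bub3 and Birc5). Capitals mark CHR matches (TTTGAA or TTCGAA, or TTCAAA on the other strand) and CCAAT boxes (CCAAT, or ATTGG on the other strand).
Cdk1, chr10:69352863-69353062, minus strand: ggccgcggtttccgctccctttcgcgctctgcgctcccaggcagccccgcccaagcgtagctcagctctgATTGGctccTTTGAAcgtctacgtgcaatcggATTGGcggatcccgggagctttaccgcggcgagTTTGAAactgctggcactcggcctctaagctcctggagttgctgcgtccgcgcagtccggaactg
Top2a, chr11:99024140-99024339, minus strand: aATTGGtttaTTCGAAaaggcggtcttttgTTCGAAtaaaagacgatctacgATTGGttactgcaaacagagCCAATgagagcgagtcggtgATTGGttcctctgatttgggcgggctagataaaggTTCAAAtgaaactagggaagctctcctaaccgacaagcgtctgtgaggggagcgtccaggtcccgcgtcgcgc
Cdc20, chr4:118437294-118437493, minus strand: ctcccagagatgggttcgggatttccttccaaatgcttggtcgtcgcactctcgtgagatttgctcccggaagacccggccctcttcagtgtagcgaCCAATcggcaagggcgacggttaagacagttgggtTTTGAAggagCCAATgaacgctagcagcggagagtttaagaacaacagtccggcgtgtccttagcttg
Prc1, chr7:80294301-80294500, plus strand: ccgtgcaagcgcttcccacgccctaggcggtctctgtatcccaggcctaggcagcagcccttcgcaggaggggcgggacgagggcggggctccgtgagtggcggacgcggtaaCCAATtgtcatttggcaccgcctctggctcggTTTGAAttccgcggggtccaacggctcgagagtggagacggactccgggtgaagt
Cenpf, chr1:189688037-189688236, minus strand: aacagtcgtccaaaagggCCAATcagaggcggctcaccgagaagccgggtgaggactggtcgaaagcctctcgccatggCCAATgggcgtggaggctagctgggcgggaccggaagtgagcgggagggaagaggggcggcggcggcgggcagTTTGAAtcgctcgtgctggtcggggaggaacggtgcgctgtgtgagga
Bub3, chr7:131560220-131560419, plus strand: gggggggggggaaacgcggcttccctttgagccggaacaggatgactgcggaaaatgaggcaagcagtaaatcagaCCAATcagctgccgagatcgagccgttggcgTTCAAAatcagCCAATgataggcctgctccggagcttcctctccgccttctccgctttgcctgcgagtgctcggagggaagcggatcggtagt
Nusap1, chr2:119618148-119618347, plus strand: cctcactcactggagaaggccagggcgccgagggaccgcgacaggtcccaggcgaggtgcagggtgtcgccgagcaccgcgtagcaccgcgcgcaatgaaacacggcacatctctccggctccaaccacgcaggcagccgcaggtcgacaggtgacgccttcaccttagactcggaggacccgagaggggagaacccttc
Birc5, chr11:117849087-117849286, plus strand: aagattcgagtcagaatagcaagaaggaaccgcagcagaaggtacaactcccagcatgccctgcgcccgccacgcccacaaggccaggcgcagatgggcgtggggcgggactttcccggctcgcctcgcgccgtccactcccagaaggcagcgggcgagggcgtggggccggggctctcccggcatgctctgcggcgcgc

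A CHR match on either strand was present in the windows of 36 of the 44 members (81.8%), against 21.7% of 27025 genes with a window and 16.2% of the 10831 tested genes with one. The difference was larger close to the start: from 50 bases before the start to the end of the window, 31 of 44 members had a match (70.5%), against 6.12% of all genes and 4.38% of tested genes. CCAAT was found in 34 members (77.3%), against 41.1% and 43.0%, and both motifs together in 31 members (70.5%), against 8.61% and 6.92%. A core E2F motif (TTCGCG or TTGGCG or TTCCCG, either strand) was found in 20 members (45.5%), against 23.5% of all genes and 39.3% of tested genes. TTCGAA reads the same on both strands, and the motifs searched do not contain one another. They can overlap, since the E2F core TTGGCG shares letters with a CCAAT box read as ATTGG, as in the printed Cdk1 window. Such letters count for both motifs. These shares describe letters in a window and not bound sites.

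Members with and without a match were found both among those called and among those not called, and the difference in their shares was not tested. Of the 36 members with a CHR match 25 were called higher, with a median log2 fold change of 0.98. The 8 without one were Birc5, Ccnb1, Cenpe, Cenpk, Mad2l1, Nuf2, Nusap1 and Plk4, of which Ccnb1, Mad2l1 and Nusap1 were called, with a median of 0.86. In the printed windows, Bub3, which was not called, carries a CHR and a pair of CCAAT boxes, and Nusap1, which was called, carries neither. The printed genes were picked after their values were seen. Bub3 and Prc1 have 2 windows each, of which only the first is printed. Over all tested genes with a window, 4.44% of the 1755 with a CHR match were called higher, against 1.61% of the 9076 without. These shares include the members, which make up 25 of the 78 called genes with a match and 3 of the 146 called genes without.

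**Figure D3:**
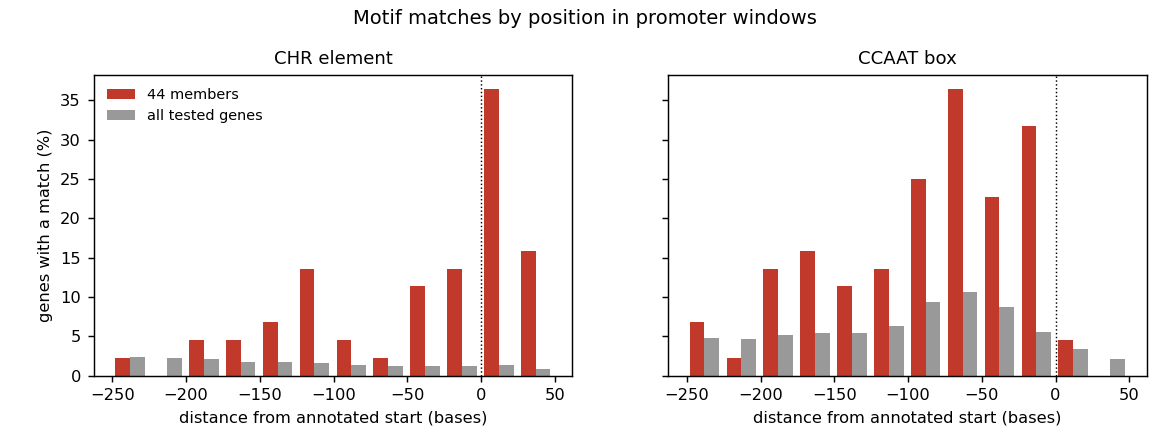
Percent of genes (vertical axis) with a CHR (left) or CCAAT (right) match in bins of 25 bases along the promoter window (horizontal axis, distance from the annotated start in bases), for the 44 members with a window (red) and all tested genes with one (grey). CHR matches of members peak just after the start, at 36.4% of members against 1.30% of tested genes, and CCAAT matches peak between 75 and 51 bases before it, at 36.4% against 10.7%.

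Of the 8 kinases, cyclins and phosphatases of mitotic entry, 5 rose (Cdk1, Ccnb1, Aurka, Ccna2 and Ccnb2), and the median log2 fold change of the 8 was 0.74. Cdk1, the kinase that drives entry (chr10:69335146-69352938), was at 68.8 and 66.2 FPKM in the mutants and 40.7 and 41.4 FPKM in the wild types (log2 fold change 0.71, SE 0.06, limma adjusted p = 0.0154). Its cyclin partner Ccnb1 was at 41.8 and 46.5 FPKM in the mutants and 22.9 FPKM in each wild type (0.93, SE 0.08, limma adjusted p = 0.0159). Replicates of these genes lay close together and the genotypes were well apart. Aurka, the centrosomal Aurora kinase, was at 15.2 and 18.1 FPKM in the mutants and 8.14 and 8.19 FPKM in the wild types (0.98, SE 0.12, limma adjusted p = 0.0301). The smallest change of the 8 was that of Cdc25b, a phosphatase that activates Cdk1, at 20.2 and 21.6 FPKM in the mutants and 13.9 and 14.5 FPKM in the wild types (0.54, 95% interval 0.31 to 0.77, limma adjusted p = 0.0506), which missed the threshold although the groups did not overlap. Cdc25c and Plk1, the other members of this role, did not pass either, at log2 fold changes of 0.81 and 0.57.

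Of the 7 genes of the spindle checkpoint and the anaphase-promoting complex, 4 rose (Cdc20, Mad2l1, Ube2c and Bub1b), with a median of 1.03 over the 7. Cdc20, the activator through which the complex recognises its mitotic substrates, was at 33.0 and 36.4 FPKM in the mutants and 15.3 and 17.8 FPKM in the wild types (1.05, SE 0.11, limma adjusted p = 0.0214). Ube2c, the ubiquitin-conjugating enzyme of the complex, was at 61.4 and 81.5 FPKM in the mutants and 28.9 and 34.5 FPKM in the wild types (1.15, SE 0.16, limma adjusted p = 0.0354). Mad2l1, which holds Cdc20 inactive while the checkpoint is on, was at 26.8 and 31.9 FPKM in the mutants and 16.1 and 17.1 FPKM in the wild types (0.80, SE 0.11, limma adjusted p = 0.0351). For these 3 genes each mutant exceeded each wild type. Bub1 and Ttk, kinases of the checkpoint, had log2 fold changes of 1.09 and 1.03 and did not pass (limma adjusted p = 0.0649 and 0.0521).

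Bub3, which brings Bub1 and Bub1b to kinetochores, stood apart (chr7:131560222-131571895). It was at 37.5 and 41.7 FPKM in the mutants and 41.3 and 40.3 FPKM in the wild types (-0.04, 95% interval -0.25 to 0.16, limma adjusted p = 0.813). The genotypes overlapped, and the interval leaves out the change of every other member, the smallest of which was 0.54. Its sign turned positive without mutant library 1. Relative to Bub3, Bub1b stood at 0.568 and 0.662 in the mutants and 0.264 and 0.308 in the wild types, a ratio of FPKM values chosen after they were seen. Bub3 has 2 near-identical processed pseudogenes in the annotation, and reads of such copies may be shared out between them. Its deposited row also shares a locus with another row.

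In the chromosomal passenger complex, which corrects faulty attachments and later acts at the cleavage furrow, 2 of 4 members rose (Aurkb and Incenp), with a median of 1.02. Aurkb, its kinase (chr11:69045647-69051664), showed the largest change of all 52 members, at 26.0 and 32.5 FPKM in the mutants and 7.90 and 11.8 FPKM in the wild types (1.54, SE 0.22, limma adjusted p = 0.0352). Incenp, its scaffold, was at 17.9 and 18.6 FPKM in the mutants and 8.99 and 9.96 FPKM in the wild types (0.91, SE 0.10, limma adjusted p = 0.0254), the smallest change of the 4. Both were higher in each mutant than in each wild type. Birc5 (survivin) was at 26.9 and 35.9 FPKM in the mutants and 12.6 and 16.7 FPKM in the wild types (1.07, SE 0.19, limma adjusted p = 0.061) and did not pass, nor did Cdca8 (borealin) at 0.98 (limma adjusted p = 0.103). Between the wild types, Aurkb, Cdca8 and Birc5 differed by 0.55, 0.52 and 0.39 on the log2 scale, more than any other member.

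Of the 8 kinetochore and centromere genes, 3 rose (Spc24, Cenpf and Ndc80), the smallest share of the 7 roles, while the median of 0.95 was close to that of all members. All 8 were higher in each mutant than in each wild type. Spc24 and Ndc80 are subunits of the Ndc80 complex, which grips the microtubule end. Spc24 was at 10.3 and 10.5 FPKM in the mutants and 4.07 and 4.96 FPKM in the wild types (1.13, SE 0.14, limma adjusted p = 0.0322). Ndc80 was at 9.99 and 11.1 FPKM in the mutants and 4.03 and 5.37 FPKM in the wild types (1.10, SE 0.17, limma adjusted p = 0.0445). The other subunits of this complex showed smaller changes that did not pass. Spc25 was at 24.5 and 34.1 FPKM in the mutants and 17.7 and 19.8 FPKM in the wild types (0.61, SE 0.17, limma adjusted p = 0.151), and Nuf2 had a log2 fold change of 0.76 (limma adjusted p = 0.0553). Within this complex, the FPKM ratio of Spc25 to its direct partner Spc24 was 2.37 and 3.25 in the mutants and 4.34 and 3.997 in the wild types. The ratio of Nuf2 to Ndc80 was 1.65 and 1.76 in the mutants and 2.41 and 2.06 in the wild types. These pairs were looked at after their values were seen, and with 2 libraries against 2 an exact two-sided permutation test of a ratio cannot go below p = 0.333. Cenpf, a large protein of the outer kinetochore, was at 10.6 and 13.3 FPKM in the mutants and 5.38 and 5.98 FPKM in the wild types (1.001, SE 0.15, limma adjusted p = 0.0425). Cenpa, the histone H3 variant that marks centromeres, Cenpe, a kinetochore motor, and Cenpk had log2 fold changes of 0.89, 1.20 and 0.80 with limma adjusted p of 0.0604, 0.0652 and 0.134.

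**Figure D4:**
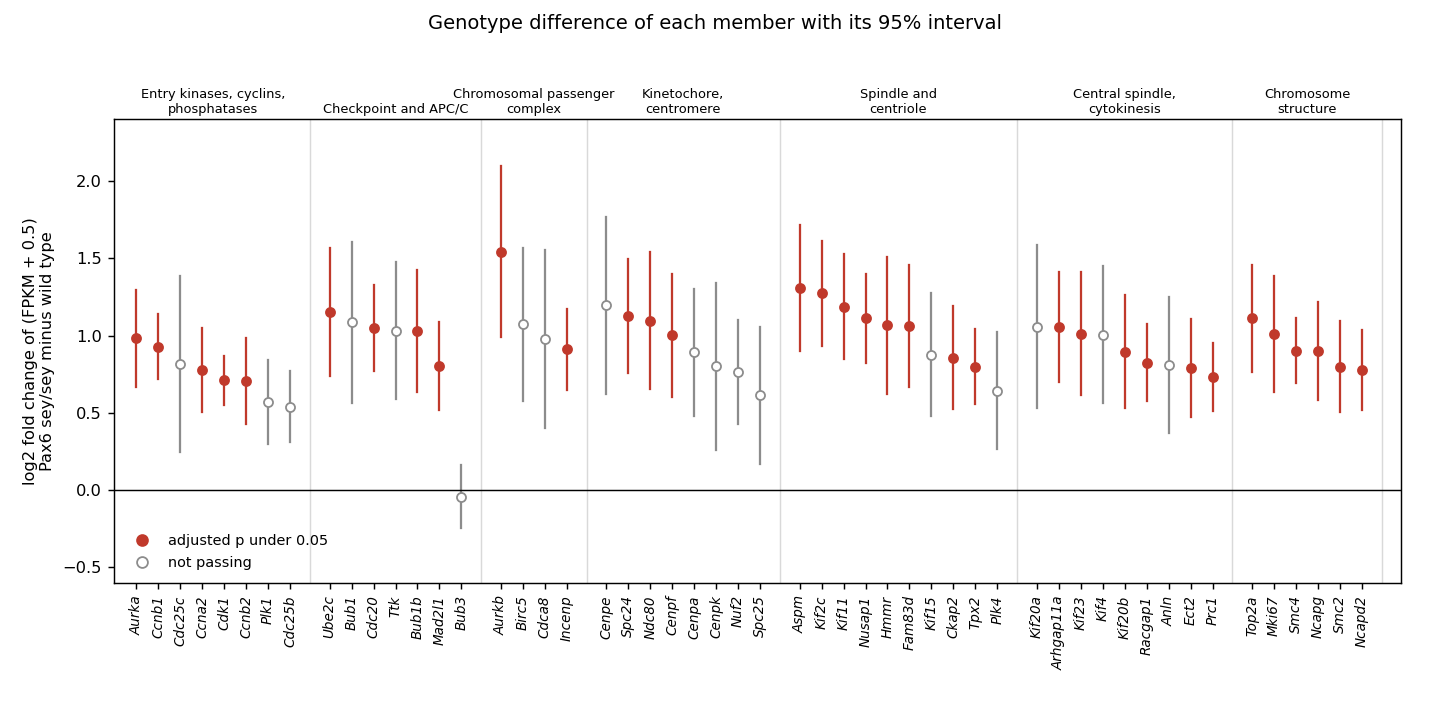
Log2 fold change of FPKM + 0.5, Pax6 sey/sey minus wild type, for each member (horizontal axis) by role, with its 95% interval from limma as a bar. Filled red points passed an adjusted p of 0.05 and open points did not. Apart from Bub3, all intervals lie above 0, and the points run from 0.54 (Cdc25b) to 1.54 (Aurkb).

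Spindle and centriole proteins gave the largest median, 1.06, and 8 of 10 rose (Nusap1, Kif2c, Kif11, Tpx2, Aspm, Fam83d, Ckap2 and Hmmr). Nusap1, which binds and bundles microtubules around chromatin, was at 25.4 and 27.7 FPKM in the mutants and 11.2 and 13.0 FPKM in the wild types (1.11, SE 0.11, limma adjusted p = 0.0204). Kif11, the motor that pushes spindle poles apart, was at 31.1 and 39.4 FPKM in the mutants and 14.6 and 15.6 FPKM in the wild types (1.19, SE 0.13, limma adjusted p = 0.025). Kif2c, a motor that shortens microtubules, was at 15.2 and 18.5 FPKM in the mutants and 6.58 and 6.72 FPKM in the wild types (1.27, SE 0.13, limma adjusted p = 0.0219). All 3 were higher in each mutant than in each wild type. Plk4, the kinase that starts centriole duplication, changed least in this role, at 12.5 and 15.6 FPKM in the mutants and 9.30 and 8.21 FPKM in the wild types (0.64, SE 0.15, limma adjusted p = 0.103). It did not pass, nor did the spindle motor Kif15 (0.88, limma adjusted p = 0.0588). The spindle pole protein Aspm, named after its value was seen, had the largest change of this role at 1.31 (SE 0.16, limma adjusted p = 0.0287).

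Among 9 genes of the central spindle and cytokinesis, 6 rose (Prc1, Racgap1, Arhgap11a, Kif23, Ect2 and Kif20b), with a median of 0.90. Prc1, which crosslinks antiparallel microtubules in the spindle midzone, was at 40.1 and 41.0 FPKM in the mutants and 25.7 and 22.8 FPKM in the wild types (0.73, SE 0.09, limma adjusted p = 0.0278), the smallest change of the 9. Racgap1, a subunit of centralspindlin, was at 57.4 and 63.5 FPKM in the mutants and 31.7 and 36.2 FPKM in the wild types (0.82, SE 0.10, limma adjusted p = 0.0278). Its partner Kif23 also rose (1.01, limma adjusted p = 0.0413), as did Ect2 (0.79, limma adjusted p = 0.0437), the exchange factor that centralspindlin recruits. Arhgap11a, a GTPase-activating protein, was at 25.8 and 30.5 FPKM in the mutants and 11.98 and 14.6 FPKM in the wild types (1.06, SE 0.14, limma adjusted p = 0.0335). For all 5 of these genes both mutants were above both wild types. The midzone motors Kif4 and Kif20a and the ring scaffold Anln had log2 fold changes of 1.005, 1.06 and 0.81 and did not pass (limma adjusted p = 0.0553, 0.0706 and 0.0844).

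All 6 genes of mitotic chromosome structure rose, with a median of 0.90. Smc4, a core ATPase of condensin, was at 51.0 and 56.8 FPKM in the mutants and 29.3 and 27.9 FPKM in the wild types (0.90, SE 0.08, limma adjusted p = 0.0172). Top2a, the topoisomerase that disentangles sister DNA, was at 86.8 and 107 FPKM in the mutants and 40.5 and 48.4 FPKM in the wild types (1.11, SE 0.14, limma adjusted p = 0.0285). Ncapd2, with the levels given above, had the smallest change of the 6 (0.78, SE 0.10, limma adjusted p = 0.0331). The condensin subunits Smc2 and Ncapg changed by 0.80 and 0.90, and Mki67, which encodes the proliferation marker Ki-67, by 1.01 (limma adjusted p = 0.0372, 0.0344 and 0.0374). For each of the 6, both mutants were above both wild types.

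Some of these values are uncertain because reads can be shared. The exons of 15 members overlap another annotated gene, in most cases on the other strand (among those described in full, Cdc25b with Spef1, Cdc20 with Elovl1, Ube2c with Tnnc2, Nusap1 with Oip5, Prc1 with Rccd1, and Top2a with a small nucleolar RNA), and the sources used here do not say whether reads were counted by strand. A further property, a near-identical copy over at least 450 bases at 90% identity, was found for 13 members (Bub3, Ccnb1, Cdc20, Cenpe, Kif11, Kif2c, Mad2l1, Ndc80, Plk1, Plk4, Prc1, Racgap1 and Ube2c). The 28 members with neither property held 20 calls, all higher, with a median log2 fold change of 0.95.

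Pax6 lies on chromosome 2 (chr2:105668900-105697364), and the background was mixed, so counts are given on and off that chromosome. The 10 members on chromosome 2 included 7 called higher, with a median of 1.04, against 3.62% of all tested genes on that chromosome called higher. The 42 members elsewhere included 27 called higher, with a median of 0.90, against 1.88% of all tested genes elsewhere called higher. The difference between these members was not tested. As for all members, 0 of these were called without any single library. Arhgap11a was the member nearest to Pax6, at 8.16 Mb.

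In the authors' deposited table, 21 members had a p-value under 0.05, all with a ratio of mutant to wild type above 1, against 1.08% of all rows with both. Of these 21, 18 were also called by limma. The smallest p-values in the authors' deposited table were those of Top2a (ratio 2.18, p = 1.02e-05), Ube2c (ratio 2.25, p = 7.24e-05) and Ncapd2 (ratio 1.71, p = 0.00031). The sources used here do not name the test behind these p-values or say whether they were adjusted. Ndc80, Spc24, Hmmr and Cenpe share the same deposited p-value (0.141), and such ties are common among adjusted values.

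Other genes of mitosis, listed by role, were mostly higher too, with smaller shares called. Of 121 such genes, all tested, 25 were called higher and none lower, against 2.02% and 1.46% of all tested genes, with a median log2 fold change of 0.46. Without mutant library 1 limma called 1 of the 121, and without any other single library it called 0. Among 31 other kinetochore genes 9 rose (median 0.70), among them Dsn1 (1.28), Knl1 (1.42) and Cenph (1.23). Among 24 other spindle proteins and motors 6 rose (median 0.54), those with the smallest p being Spag5 (1.45), Dlgap5 (1.12), Ckap2l (1.01) and Kif22 (0.91). Among 19 other mitotic kinases and cytokinesis genes 5 rose (median 0.88), those with the smallest p being Cdca2 (1.44), Cdca3 (0.91), Ccnf (0.88) and Cit (1.35).

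The remaining mitotic lists held few calls. Of 17 genes of the anaphase-promoting complex and its regulators, Fbxo5 (Emi1), an inhibitor of the complex, was the only one called (1.17, SE 0.13, limma adjusted p = 0.0256), and the median was 0.11. The other 16 had log2 fold changes between -0.09 (Anapc16) and 0.20 (Ube2s). Of 15 genes of cohesin and its release, 3 rose (Sgo2a at 1.48, the separase gene Espl1 at 1.20 and Cdca5 at 0.86), with a median of 0.34. Of 4 other condensin genes, Ncaph was called (0.99), with a median of 0.52. Of 11 genes of centriole duplication and microcephaly 0 were called by limma (6 at unadjusted p under 0.05), with a median of 0.45.

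Part of the DNA replication genes rose as well, beside 2.02% called higher and 1.46% called lower among all tested genes. Of 41 replication and nucleotide supply genes, 14 were called higher and none lower, with a median of 0.54, those with the smallest p being Rrm2 (0.90), Mcm5 (0.97), Prim1 (0.75) and Cdc45 (0.91), and 0 of the 41 were called without any single library. The summed level of the 52 members over that of these 41 genes was 1.19 and 1.30 in the mutants and 0.932 and 0.994 in the wild types. This gain relative to the replication genes holds for the 52 members, which were chosen with earlier results known, and not for mitotic genes in general. The 121 other mitotic genes had a median log2 fold change of 0.46, below the 0.54 of the replication genes. Among 12 G1 cyclins and Cdk inhibitors, Ccnd2 was the only one called, at 275 and 334 FPKM in the mutants and 61.4 and 56.3 FPKM in the wild types (2.36, SE 0.11, limma adjusted p = 0.0044, and 0.0711 and 0.0708 without wild-type library 1 or 2). Among 25 transcriptional regulators of mitotic genes 3 rose. Foxm1, the activator that binds at CHR elements with MuvB, was at 38.0 and 49.8 FPKM in the mutants and 14.0 and 16.8 FPKM in the wild types (1.47, SE 0.16, limma adjusted p = 0.0241, and between 0.0619 and 0.171 without each library in turn). The others were E2f7 (1.27) and E2f2 (1.30), and the median of the 25 was 0.31.

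**Figure D5:**
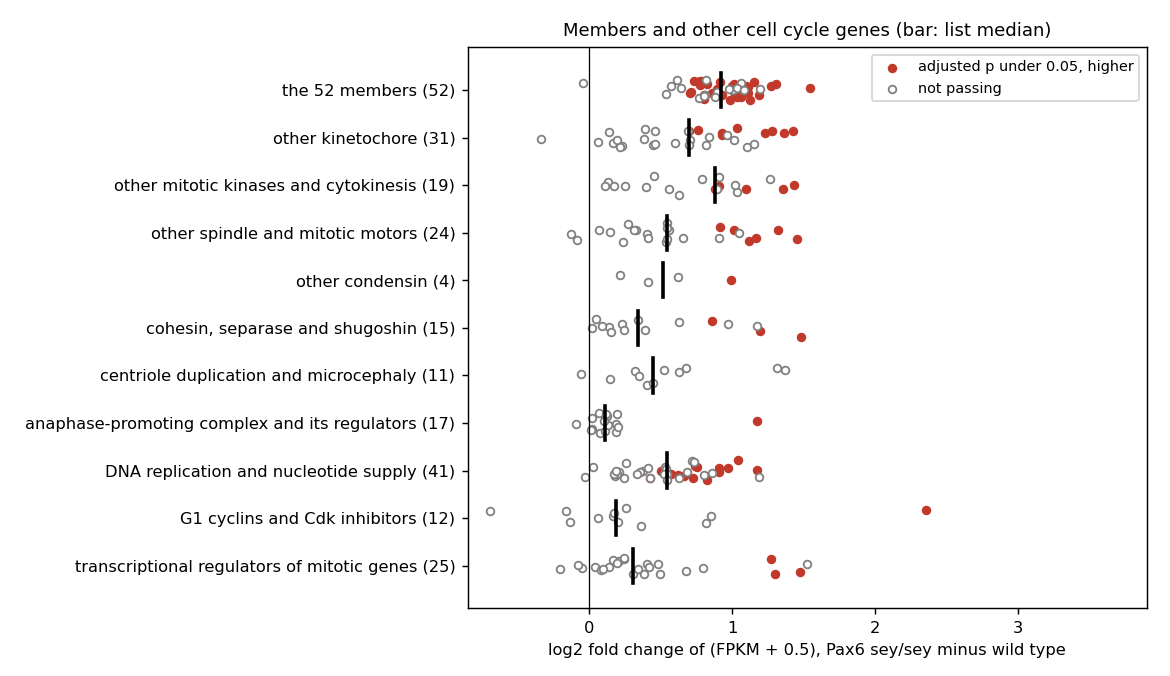
Log2 fold change of FPKM + 0.5, Pax6 sey/sey minus wild type (horizontal axis), of the 52 members and of genes of 10 other cell cycle lists (rows, number of genes in parentheses), filled red where called higher. Bars mark medians, which are 0.92 for the members, 0.54 for DNA replication and 0.11 for the anaphase-promoting complex and its regulators.

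Markers of cell types moved in different directions. Beside the counts below, 2.02% of all tested genes were called higher and 1.46% lower. Of 10 tested ventral progenitor and interneuron markers 8 rose, with a summed level of the 12 listed of 689 and 791 FPKM in the mutants and 130.4 and 95.7 FPKM in the wild types (Gsx1 and Nkx2-1 were at 0.5 FPKM or less throughout). Radial glia markers summed to 980 and 976 FPKM in the mutants and 1138 and 987 FPKM in the wild types, with 2 of 12 higher (Sox2 and Sox9) and 1 lower (Emx1). Of 7 tested intermediate progenitor markers 4 fell, with sums of the 8 listed of 127 and 121 FPKM in the mutants and 184 and 224 FPKM in the wild types (Neurog1 was at 0.5 FPKM or less throughout). The largest part of the radial glia sum was Fabp7, at 526 and 525 FPKM in the mutants and 719 and 540 FPKM in the wild types, and 7 of the 12 markers had a log2 fold change above 0, with a median of 0.11. Cortical projection neuron markers summed to 1066 and 1021 FPKM in the mutants and 1500 and 1606 FPKM in the wild types, with 5 of 9 lower, and pan-neuronal markers to 2418 and 2357 FPKM in the mutants and 2656 and 2554 FPKM in the wild types, with 1 of 10 lower.

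No marker was called among 8 endothelial, 6 pericyte, 6 tested meningeal, 8 microglial, 7 tested erythroid and 5 oligodendrocyte precursor genes. The endothelial sum was 74.3 and 57.2 FPKM in the mutants and 49.5 and 48.9 FPKM in the wild types, and the meningeal sum was 30.8 and 7.56 FPKM in the mutants and 4.91 and 3.32 FPKM in the wild types. Both sums were higher in each mutant than in each wild type, as most members were. Both were highest in mutant library 1, in which 50 of the 52 members were lower than in mutant library 2. Without each library in turn, limma called 0 to 5 of the ventral markers, 0 to 1 of the radial glia markers, 0 to 3 of the intermediate progenitor markers and 0 to 1 of the projection neuron markers. The fewest calls of the ventral list came without mutant library 2. The part of any of these cell types in the rise of the mitotic genes was not tested.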

How the data were processed

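The authors deposited 1 table with FPKM for each of 4 libraries, group FPKM values, a linear ratio of mutant to wild type and p-values. Per the submitters' processing notes, TopHat2 2.0.9, Cufflinks 2.2.1, edgeR and the builds GRCm38.p4 and mm10 were used, with no role or order given. How the deposited p-values were made, strand use and RNA selection are not given in the sources used here. Per the labels' protocols, total RNA was column-purified with DNase from frozen cortex. Libraries were grouped by the genotype in the labels. Because the deposited values are FPKM and not counts, no count model was fitted. All tests used limma 3.58.1 in R 4.3.3 on log2(FPKM + 0.5) with a mean-variance trend, over the 15399 genes at 0.5 FPKM or more in at least 2 libraries, with genotype as the only term and Benjamini-Hochberg adjustment over all tested genes. The variance prior had 3.05 degrees of freedom, for 5.05 in all. The code was tested on simulated data. Members and gene lists were chosen with earlier results of these data known. In each role, the 3 members with the smallest p and the one with the smallest absolute change were described library by library; from other lists, up to 4 called genes, of which 1 is not reported here. Gene positions are those of the GENCODE M21 annotation, and 22599 of 22770 identifiers matched it. Of the deposited rows, 9357 share a locus with another row, 14 members among them. No test was made over a list. Alternatives were other pseudocounts, filters and scalings, a fit without the trend, the replicate number as a block, each library left out and shared loci left out. Depth is unknown in fragments, so no counting intervals are given.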

Additional observations from a re-analysis of the deposited data

How the results depend on the processing

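Under other pseudocounts, scalings and a filter on the mean of 1 FPKM or more, limma called between 34 and 37 of the 52 members, all higher, and their median log2 fold change stayed between 0.90 and 0.95, with 1.97% to 2.2% of all tested genes called higher. Without the filter on low values, 61 genes were called in all, 1 member, 0 members on chromosome 2, 2 of the other mitotic genes and 1 replication gene, with 51 members at unadjusted p under 0.05. Without the mean-variance trend limma called 54 genes in all, and 0 members, 0 members on chromosome 2, 0 other mitotic and 0 replication genes, again with 51 members at unadjusted p under 0.05. The share of all tested genes under that unadjusted p is not given for either fit. Leaving out each library in turn, the calls numbered 7 to 59 over all genes, 0 to 0 over the members, 0 to 0 over those on chromosome 2, 0 to 1 over the other mitotic genes and 0 to 0 over the replication genes. In those fits the lone library of a genotype is assumed to vary like the other 2. The median of the members ran from 0.81 without mutant library 2 to 1.06 without mutant library 1, where the log2 fold change of Bub3 turned to 0.0317 (-0.12 without mutant library 2). Without rows that share a locus, 30 of 38 members were called, and Bub3 was not among the 38. The cause of these changes was not tested. With the replicate number as a block 374 genes and 37 members were called, 31 of them among the 34 of the fit without it. The within-group differences of equal numbers correlated at 0.0492 over genes, so the numbers were not taken to pair libraries. Most members were nevertheless higher in library 2 than in library 1 in both genotypes (50 and 45 of 52). Whether this reflects a pairing was not tested. Counts over roles and promoter shares were not recomputed.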
